A study of Mus musculus with 16 samples.

Results

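Homologous recombination rebuilds a broken chromosome from its sister copy, and the Fanconi pathway clears crosslinks between DNA strands and hands the resulting breaks to recombination. The 34 genes described here, of 22375 in the count tables, were a fixed list of mouse genes of both pathways, and each symbol was matched to its Ensembl identifier through the mouse annotation. They were followed in mouse embryonic stem (ES) cells, which were either WT (E14TG2a, strain 129/OLA) or Cfp1-/- (also labelled 129/OLA), and either untreated or exposed to doxorubicin for 6 hours. Cfp1, encoded by Cxxc1, binds unmethylated CpG and is a subunit of the Set1 complexes that deposit H3K4me3, and doxorubicin traps topoisomerase II on DNA and breaks it. The treatment protocol gives a dose of 1 μM, whereas the treatment label of the samples gives 1 mM. Each of the 4 groups had 2 biological replicates, each sequenced in 2 technical runs that were summed, so n = 2 per group. All groups were grown with serum and LIF on gelatin. Each genotype is represented by 1 line as far as the labels say, so a difference between them cannot be told apart from any other difference between 2 lines.

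In broken DNA, the Mre11-Rad50-Nbn complex and Rbbp8 start to trim the ends, Exo1 extends the single strand, Brca1, Palb2 and Brca2 prepare it for pairing with the sister copy, and helicases and nucleases take the joined molecules apart. In the Fanconi pathway, a core complex with the ubiquitin ligase Fancl marks Fancd2 and Fanci, which recruit the nuclease scaffold Slx4. ES cells divide fast, spend much of their cycle in S phase and rely on recombination. In bulk RNA, fewer cells of one kind and less RNA per cell cannot be told apart, and this holds for every change given here.

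The counts of the 8 biological replicates summed to between 14880589 and 29422711. Cxxc1 had 616 to 1412 raw counts in the 4 WT libraries and 1 to 5 in the 4 Cfp1-/- libraries, as labelled. The p53 target Cdkn1a had 131 to 338 normalized counts in the 4 untreated and 1165 to 1805 in the 4 treated libraries. All 9 ES cell markers were present, with a summed level of 25330 to 94513 normalized counts, and the sums for markers of feeder fibroblasts (138 to 572), primitive endoderm (194 to 685) and trophectoderm (78.1 to 473) were far lower. The 2 technical runs agreed within sampling noise in 6 of 8 replicates. In replicate 1 of treated Cfp1-/- and of treated WT cells they did not, and the chi-square per degree of freedom over all genes was 42.9 and 9.61.

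Fancb, a core complex subunit and the only member on the X chromosome, had 518 counts in the first and 0 in the second run of replicate 1 of treated Cfp1-/- cells. Fancl had 510 and 106 counts in the same 2 runs, a ratio of 0.402 once the run totals were taken into account, and 449 and 150 in replicate 1 of treated WT cells, a ratio of 0.576. The other 32 members had ratios of 0.743 or higher in all 8 replicates. Below 0.8 lay 6 members in replicate 1 of treated WT cells (Mre11a, Rbbp8, Rad51d, Fancl, Fancd2 and Fanci), 4 in replicate 1 of treated Cfp1-/- cells (Mre11a, Fanca, Fancb and Fancl) and 2 in replicate 2 of treated WT cells. With first runs alone, the calls of Fancf, Fancl and Fancd2 in the WT and of Fancg and Fancl in the Cfp1-/- response were lost, Xrcc3 and Brip1 were added in the WT response, and between the lines Wrn was added without treatment. Where a call was lost, the value from first runs alone is given beside it.

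**Figure D1:**
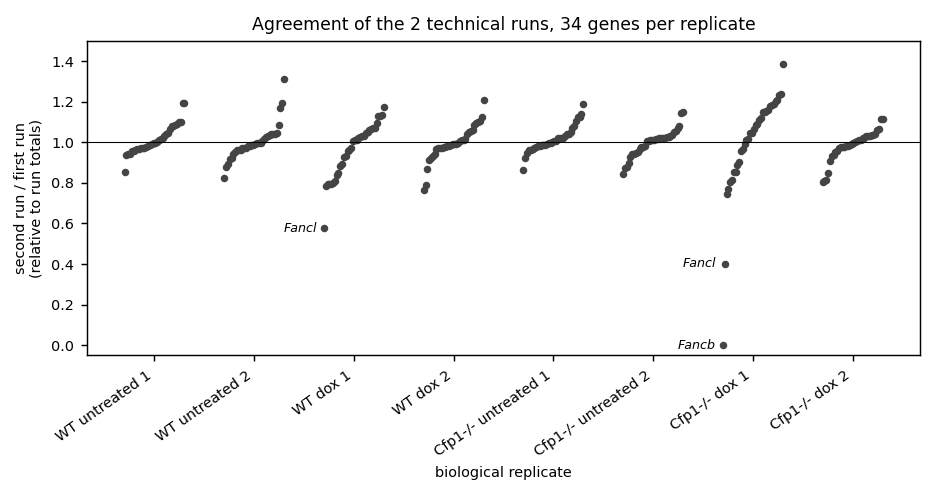
Ratio of the second to the first technical run for each of the 34 genes (points, sorted by ratio) in each of the 8 biological replicates, relative to the run totals, so that 1 on the vertical axis means equal shares. Fancb lies at 0 and Fancl at 0.402 in replicate 1 of treated Cfp1-/- cells, and Fancl at 0.576 in replicate 1 of treated WT cells.

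All 34 genes were expressed and passed the filter on low counts, with a lowest raw count of 48 in any library. In untreated WT cells the median level was 270 normalized counts per kb of exon for the 34 genes and 92.3 for all 15758 genes tested, and 27 of the 34 lay above the latter. On this per-kb scale Brca1 (802), the helicase gene Blm (768), Brca2 (735), Nbn (733) and Mre11a (715) stood highest. Fancc (48.2), Fancg (55.9), Rad51d (56.5) and Rad51c (57.1) stood lowest. The subunits of one complex were thus not at one level, since the core complex ran from 48.2 for Fancc to 527 for Fancm. The members spanned 1.69 to 506 kb of the genome, with a median of 40.9 kb.

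The promoters are shown because Cfp1 binds CpG, and their part in the changes given here was not tested. A RefSeq window (GRCm38.p6) from 250 bases before to 50 after a transcript start was found for 25 of the 34 genes, in 28 windows, and the members without one were Exo1, Fancd2, Nbn, Rad50, Rad51d, Rad54b, Rbbp8, Wrn and Xrcc2. The windows held a median of 22 CpG (range 3 to 32), against 7 in all 32851 windows. The windows of 6 genes are printed 5′ to 3′ on the coding strand with every CpG in capitals. Brca1 (chr11:101551906-101552205, minus strand) and Brca2 (chr5:150522371-150522670, plus strand) fell with doxorubicin in both lines, Slx4 (chr16:4001629-4001928, minus strand) and Rad52 (chr6:119902448-119902747, plus strand) rose in both, and Fanci (chr7:79392088-79392387, plus strand) and Fancg (chr4:43010252-43010551, minus strand) had the largest positive differences between the untreated lines.
Brca1: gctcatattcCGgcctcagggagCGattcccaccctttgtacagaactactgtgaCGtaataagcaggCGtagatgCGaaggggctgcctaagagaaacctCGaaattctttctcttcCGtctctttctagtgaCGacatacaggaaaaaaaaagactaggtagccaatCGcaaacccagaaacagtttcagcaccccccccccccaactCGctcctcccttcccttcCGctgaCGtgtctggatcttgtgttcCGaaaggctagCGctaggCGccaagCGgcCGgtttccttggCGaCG
Brca2: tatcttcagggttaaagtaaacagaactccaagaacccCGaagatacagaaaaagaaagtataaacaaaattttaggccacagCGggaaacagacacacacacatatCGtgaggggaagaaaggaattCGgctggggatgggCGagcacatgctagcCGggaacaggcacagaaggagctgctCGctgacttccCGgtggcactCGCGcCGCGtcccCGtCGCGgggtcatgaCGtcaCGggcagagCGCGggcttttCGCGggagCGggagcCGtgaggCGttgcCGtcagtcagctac
Slx4: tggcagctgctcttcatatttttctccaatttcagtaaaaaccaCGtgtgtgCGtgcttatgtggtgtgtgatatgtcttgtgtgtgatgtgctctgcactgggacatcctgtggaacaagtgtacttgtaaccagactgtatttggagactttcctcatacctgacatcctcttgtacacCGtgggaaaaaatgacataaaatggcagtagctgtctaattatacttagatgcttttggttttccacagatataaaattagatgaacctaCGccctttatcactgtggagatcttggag
Rad52: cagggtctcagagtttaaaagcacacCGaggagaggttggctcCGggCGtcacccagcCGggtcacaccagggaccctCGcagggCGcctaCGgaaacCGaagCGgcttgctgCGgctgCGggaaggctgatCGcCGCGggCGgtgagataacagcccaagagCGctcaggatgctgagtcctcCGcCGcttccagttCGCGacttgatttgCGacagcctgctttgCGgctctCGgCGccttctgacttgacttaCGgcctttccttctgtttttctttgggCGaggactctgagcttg
Fanci: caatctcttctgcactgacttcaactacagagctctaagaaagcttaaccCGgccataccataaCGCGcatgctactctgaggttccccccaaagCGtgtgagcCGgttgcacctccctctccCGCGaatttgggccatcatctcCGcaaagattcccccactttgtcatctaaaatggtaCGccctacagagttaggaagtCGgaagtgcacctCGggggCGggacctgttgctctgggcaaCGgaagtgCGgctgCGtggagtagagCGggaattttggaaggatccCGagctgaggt
Fancg: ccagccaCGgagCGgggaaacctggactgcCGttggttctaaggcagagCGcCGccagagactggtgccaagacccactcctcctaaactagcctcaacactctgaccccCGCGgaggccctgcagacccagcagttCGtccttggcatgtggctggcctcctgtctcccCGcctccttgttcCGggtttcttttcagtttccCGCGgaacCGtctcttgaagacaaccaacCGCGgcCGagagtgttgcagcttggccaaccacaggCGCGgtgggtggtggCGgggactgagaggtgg
The Slx4 window held 4 CpG and 41.3% GC. Its transcript start lay 2151 bases inside the outermost 5′ end of the gene in the same RefSeq build, farther than in the other windows printed (0 to 976 bases). A window starts 250 bases before its transcript start, so the outermost 5′ end of Slx4 and any promoter there are not shown. The same holds for Rad52 (976 bases), Brca2 (324) and Fancg (266). The other 5 windows held 17 (Fanci), 19 (Brca1 and Fancg), 25 (Brca2) and 26 (Rad52) CpG. Of the 28 windows of the members, 5 (17.9%) held 1 or more of 5 E2F motifs (TTTGGCGC, TTTCCCGC, TTTGGCGG, TTTCGCGC, TTTGGGCGC, both strands), namely those of Bard1, Brca2 and Fancg and both of Rad51c, against 2.47% of all windows. E2F factors drive genes of S phase. The CCAAT box, searched apart from these motifs, was in 17 windows (60.7%) against 37.4%. The windows of Rad54l overlap each other, as do those of Rad51b. Counted by gene, the CCAAT box was in 15 of 25 (60%) and an E2F motif in 4 (16%). The share of all windows was not limited to genes expressed here. The cell cycle homology motif TTTGAA was in 3 (10.7%) against 17.9%, the CRE motif TGACGTCA in 2 (7.14%, Brca2 and Rad51c) against 1.79%, the ETS motif CCGGAAGT in 3 (10.7%) against 3.89%, and the NRF1 motif in 0 against 0.971%. The windows of the members also held more GC than all windows, with medians of 59.8% and 52.7%, and its part in these shares was not tested.

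Which recombination and Fanconi genes responded to doxorubicin was asked first in WT cells. Of the 34, 4 rose and 11 fell at an adjusted p under 0.05 (edgeR's quasi-likelihood test, Benjamini-Hochberg adjustment over 15758 genes), and 19 were not called. Among all genes 26.5% rose and 21.8% fell, so risers were 11.8% and fallers 32.4% of the members. The median log2 fold change was -0.08 for the members and 0.06 for all genes, and it ran from -0.25 to -0.08 for the members with 1 library left out. The normalized counts of treated and untreated replicates did not overlap for 22 of the 34, and for 73.5% of all genes. The limits of the study, a 2.5-fold change or more and 200 or more normalized counts on average, were met by 1 member, Rad51d, and by 7.91% of all genes, so most of these changes were modest. Scaling by library totals instead of TMM moved the median of all genes up by 0.31 and that of the members to 0.24, and then 10 members were called higher and 2, Exo1 and Nbn, lower, with no called member changing sign. Fits that left out 1 library called 3 or 4 rising and 4 to 11 falling members, the fewest without replicate 2 of treated (4) or replicate 1 of untreated WT cells (4). Rad50, Rad51d and Slx4 (rising) and Exo1, Nbn and Blm (falling) were called in all 8 such fits. With the replicate number as a block, Xrcc3 (rising) and Mre11a and Fancm (falling) were called as well, and no call was lost. For library totals, the replicate block and fits with 1 library left out, here and below, the shares of all genes called are not given.

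The same number of members rose in Cfp1-/- cells, and 8 fell. These 4 were again Rad50, Rad51d, Rad52 and Slx4. Of all genes 27.8% rose and 21.0% fell there, against 11.8% and 23.5% of the members. Medians were -0.19 for the members (-0.24 to -0.17 with 1 library left out) and 0.01 for all genes, 30 of the 34 did not overlap against 77.5% of all genes, and Rad51d alone met the limits of the study, as did 7.61% of all genes. With library totals, which moved the median of all genes up by 0.21 and that of the members to 0.0259, 5 were called higher and 4 lower. Leaving out 1 library gave 1 to 3 rising members, 2 without replicate 1 and 1 without replicate 2 of treated cells, and the same without replicates 1 and 2 of untreated Cfp1-/- cells. It gave 5 to 10 falling ones, with 5 without replicate 1 of treated Cfp1-/- cells. Only Rad51d among the risers and Exo1, Brca1, Brca2 and Fancm among the fallers were called in all 8 fits. The replicate block added Bard1, Rad51c and Blm to the falling members, and no call was lost.

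Brca1, Brca2, Exo1, Fancl and Rad54l fell in both lines, which share no library in these 2 comparisons. Fancl, however, had few counts in the second run of replicate 1 of treated cells in both lines. Its call was lost in both with first runs alone. Called changes in both lines were 4 higher (11.8% of the members, 21.4% of all genes) and 5 lower (14.7% and 16.3%), and none went opposite ways. The fold changes had the same sign in both lines for 27 of the 34 (79.4%) and for 85.0% of all genes.

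**Figure D2:**
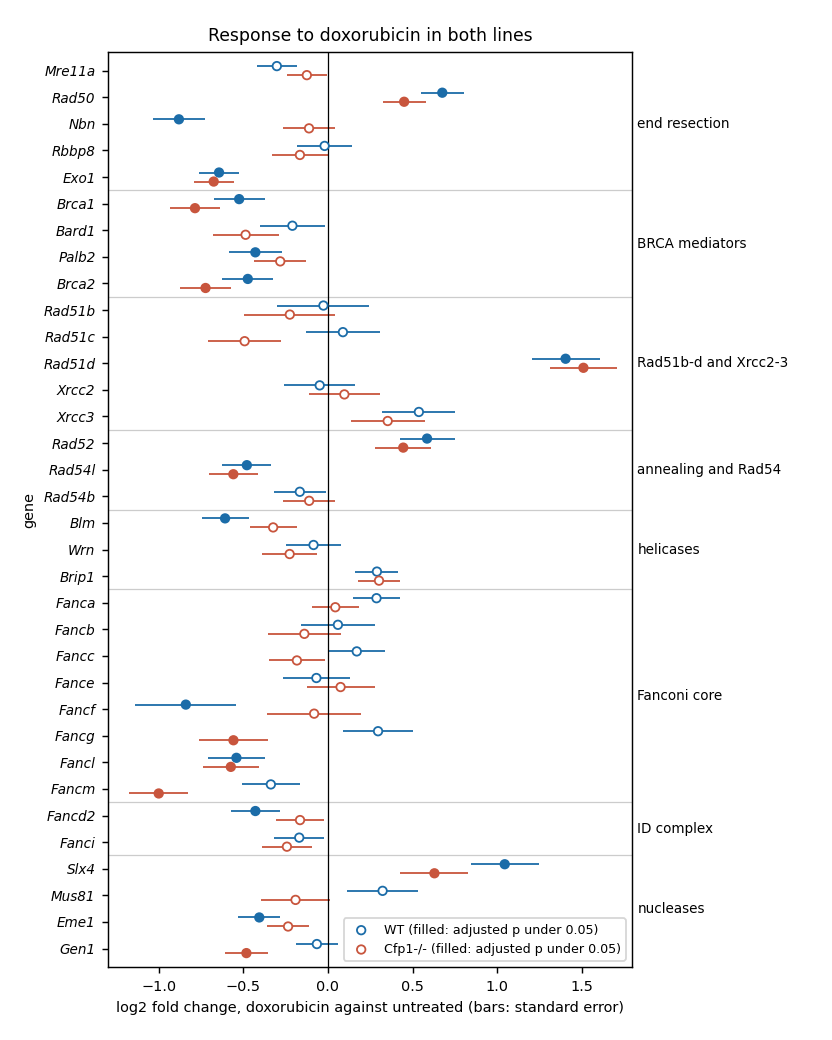
Log2 fold change of each of the 34 genes with doxorubicin in WT (blue) and Cfp1-/- cells (red), ordered by role, with bars for the standard error and filled points for an adjusted p under 0.05. Rad51d (1.41 and 1.51) and Slx4 (1.05 and 0.63) lie farthest to the right, and Nbn in WT (-0.88) and Fancm in Cfp1-/- cells (-1.001) farthest to the left.

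Among the genes of end resection, Rad50 rose and Nbn fell in WT cells, and Mre11a, the other subunit of their complex, did not pass the test. Rad50 (ENSMUSG00000020380, NCBIm37 chromosome 11, 53463021 to 53520821), the ATPase that tethers the ends, had 2915 and 3324 normalized counts in untreated WT, 4657 and 4997 in treated WT, 5527 and 5761 in untreated Cfp1-/- and 6980 and 8000 in treated Cfp1-/- cells. Neither line's groups overlapped, and every Cfp1-/- library lay above every WT library. The log2 fold change was 0.68 (SE 0.13, adjusted p = 0.00196) in WT and 0.45 (SE 0.13, adjusted p = 0.0153) in Cfp1-/- cells. Nbn (ENSMUSG00000028224, chromosome 4, 15885072 to 15919736), the scaffold that brings the ATM kinase to breaks, had 1718 and 1995 counts in untreated WT, 895 and 1056 in treated WT, 686 and 799 in untreated Cfp1-/- and 673 and 661 in treated Cfp1-/- cells. It fell in WT cells (-0.88, SE 0.15, adjusted p = 0.0012) to a level still above that of both Cfp1-/- groups, where the value was -0.11 (adjusted p = 0.578). Mre11a, the nuclease of the complex, went from 4218 ± 55.2 to 3313 ± 183 counts (SD, n = 2) in WT cells, with -0.30 (adjusted p = 0.0605, or 0.0334 with the replicate number as a block), and its value in Cfp1-/- cells was -0.13 (adjusted p = 0.416). Rbbp8, which activates that nuclease, had -0.02 and -0.17 (adjusted p = 0.931 and 0.435).

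Exo1 (ENSMUSG00000039748, chromosome 1, 177810909 to 177841527), the exonuclease of long-range resection, fell in both lines. Its counts were 3754 and 3549 in untreated WT, 2236 and 2290 in treated WT, 2733 and 2981 in untreated Cfp1-/- and 1778 and 1694 in treated Cfp1-/- cells, with no overlap in either line. The log2 fold changes were -0.64 (SE 0.12, adjusted p = 0.00163) and -0.68 (SE 0.12, adjusted p = 0.00128).

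The BRCA mediators, which act on single-stranded DNA before strand exchange, had negative values in both lines for all 4 genes, and this held under both other scalings for the called ones. Brca1 (ENSMUSG00000017146, chromosome 11, 101350078 to 101413269), a ubiquitin ligase with Bard1, had 7403 and 6194 counts in untreated WT, 5024 and 4130 in treated WT, 9554 and 9131 in untreated Cfp1-/- and 5622 and 4894 in treated Cfp1-/- cells. It fell by 0.53 on the log2 scale in WT (SE 0.15, adjusted p = 0.0162) and by 0.79 in Cfp1-/- cells (SE 0.15, adjusted p = 0.00209), and the groups overlapped in neither line. Brca2 (ENSMUSG00000041147, chromosome 5, 151325205 to 151372321), the partner of Palb2, had 8335 and 7422 counts in untreated WT, 5901 and 5088 in treated WT, 8264 and 7358 in untreated Cfp1-/- and 5053 and 4129 in treated Cfp1-/- cells. The untreated lines overlapped, and treated libraries lay below untreated ones in both. The fold changes were -0.47 (SE 0.15, adjusted p = 0.0257) and -0.72 (SE 0.15, adjusted p = 0.00331). Palb2, the bridge between both proteins, fell in WT cells (-0.43, adjusted p = 0.0449), and had -0.28 (adjusted p = 0.159) in Cfp1-/- cells. Bard1 had -0.21 and -0.49 (adjusted p = 0.399 and 0.0626, the latter 0.0097 with the replicate block).

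**Figure D3:**
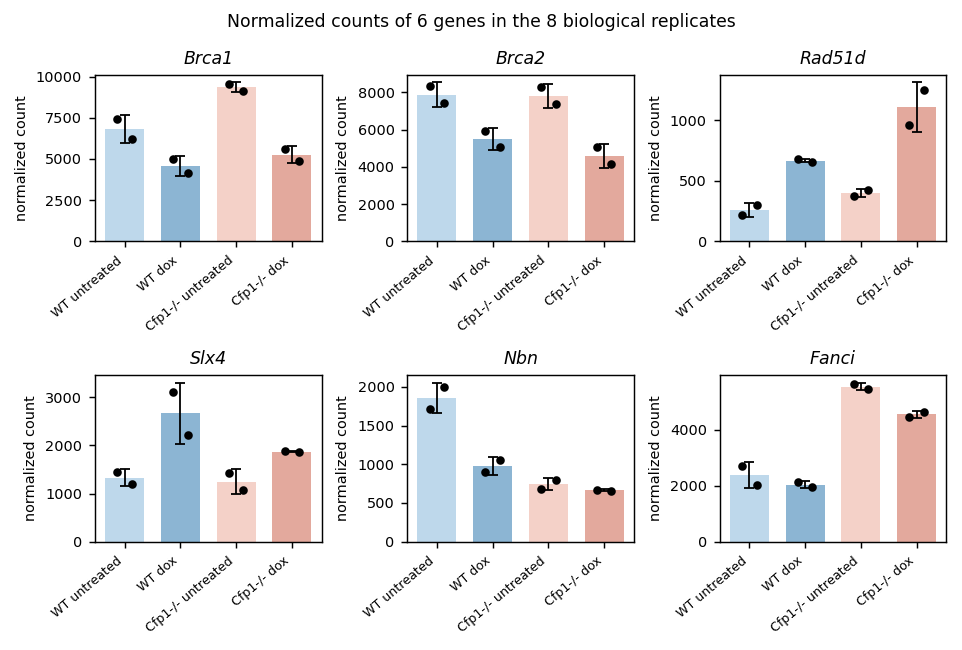
Normalized counts of 6 genes in the 4 groups, with bars for the mean, error bars for the SD (n = 2) and points for the biological replicates. Brca1 and Brca2 were lower and Rad51d and Slx4 higher with doxorubicin in both lines, Nbn was highest in untreated WT cells (1718 and 1995), and Fanci was higher in all Cfp1-/- libraries (4464 to 5647) than in all WT libraries (1950 to 2708).

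Rad51b, Rad51c, Rad51d, Xrcc2 and Xrcc3, which form complexes that assist strand exchange, held the largest riser and otherwise little that passed the test. Rad51d (ENSMUSG00000018841, chromosome 11, 82685466 to 82704116) had 221 and 299 counts in untreated WT, 677 and 655 in treated WT, 375 and 423 in untreated Cfp1-/- and 960 and 1249 in treated Cfp1-/- cells. Every treated library lay above every untreated one. It rose 2.65-fold in WT (log2 1.41, SE 0.20, adjusted p = 0.000396) and 2.85-fold in Cfp1-/- cells (log2 1.51, SE 0.20, adjusted p = 0.000253). Rad51b, Rad51c and Xrcc2, its partners in the complex named BCDX2 after their initials, had values of -0.03, 0.09 and -0.05 in WT cells and of -0.23, -0.49 and 0.10 in Cfp1-/- cells, none of them called. With the replicate block the value of Rad51c in Cfp1-/- cells passed (adjusted p = 0.0291). Xrcc3, the partner of Rad51c in the other complex, had 0.54 (adjusted p = 0.0644, or 0.0314 with the block) and 0.35 (adjusted p = 0.213).

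Rad52 and Rad54l, which act in strand annealing and strand exchange, moved oppositely. Rad52, an annealing protein, rose from 422 ± 4.59 to 614 ± 26.1 counts in WT (0.59, SE 0.16, adjusted p = 0.0143) and from 297 ± 4.44 to 393 ± 32.2 in Cfp1-/- cells (0.45, SE 0.16, adjusted p = 0.0469). In Cfp1-/- cells DESeq2 did not call Rad52 (adjusted p = 0.0863), and neither did edgeR with DESeq2's size factors. Rad54l, a motor that drives strand exchange, fell from 2156 ± 133 to 1498 ± 235 counts in WT (-0.48, SE 0.14, adjusted p = 0.0208) and from 2284 ± 10.0 to 1504 ± 106 in Cfp1-/- cells (-0.56, SE 0.14, adjusted p = 0.00997). Rad54b, its paralogue, had -0.17 and -0.11 (adjusted p = 0.394 and 0.577). A shorter gene model with the symbol Rad54b lies within its span, and only the longer model was used.

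Among the helicases, Blm, which takes double Holliday junctions apart, fell in WT cells from 3799 ± 209 to 2414 ± 393 counts (-0.61, SE 0.14, adjusted p = 0.00554). In Cfp1-/- cells its value was -0.32 (adjusted p = 0.0779, or 0.034 with the block). Wrn had -0.09 and -0.23 (adjusted p = 0.694 and 0.278), and Brip1, a helicase that binds Brca1, had 0.29 and 0.30 (adjusted p = 0.0865 and 0.072).

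Of the 8 core complex genes, 2 fell in WT cells and 3 in Cfp1-/- cells, and the others were not called. Among all genes 21.8% fell in WT and 21.0% in Cfp1-/- cells. Fancl (chromosome 11), the ubiquitin ligase, fell in both, from 1221 ± 170 to 812 ± 38.9 counts in WT (-0.54, SE 0.17, adjusted p = 0.0227) and from 1061 ± 136 to 692 ± 88.9 in Cfp1-/- cells (-0.57, SE 0.17, adjusted p = 0.0173). These calls rest partly on the affected runs. Without the one of treated Cfp1-/- cells the latter was -0.41 (adjusted p = 0.0472), and with first runs alone the values were -0.37 (adjusted p = 0.0786) and -0.39 (adjusted p = 0.0644). Fancf (ENSMUSG00000092118, chromosome 7, 59115947 to 59117637), an adaptor and a gene of low counts, had 121 and 87.6 in untreated WT, 62.9 and 50.7 in treated WT, 134 and 185 in untreated Cfp1-/- and 140 and 152 in treated Cfp1-/- cells. It fell in WT (-0.84, SE 0.30, adjusted p = 0.0416, and -0.74 with an adjusted p of 0.0945 with first runs alone), whereas the Cfp1-/- groups overlapped (-0.08, adjusted p = 0.83).

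Fancm (ENSMUSG00000055884, chromosome 12, 66176593 to 66233045), the DNA translocase that anchors the core complex, had the largest fall in Cfp1-/- cells. Its counts were 4509 and 3692 in untreated WT, 3322 and 2965 in treated WT, 5396 and 4329 in untreated Cfp1-/- and 2629 and 2090 in treated Cfp1-/- cells. The fold change was -1.001 (SE 0.17, adjusted p = 0.00125) in Cfp1-/- and -0.34 (adjusted p = 0.135, or 0.023 with the block) in WT cells, and the groups overlapped in neither. Fancg (ENSMUSG00000028453, chromosome 4, 43015215 to 43023378), which holds Fanca in the complex, had 233 and 192 counts in untreated WT, 274 and 232 in treated WT, 478 and 627 in untreated Cfp1-/- and 350 and 378 in treated Cfp1-/- cells. It fell in Cfp1-/- cells (-0.56, SE 0.20, adjusted p = 0.0444, and -0.52 with an adjusted p of 0.0697 with first runs alone) and had 0.30 (adjusted p = 0.272) in WT cells.

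Fancb (ENSMUSG00000047757, X chromosome, 161418524 to 161435204), the partner of Fancl, had 729 and 822 counts in untreated WT, 682 and 880 in treated WT, 681 and 820 in untreated Cfp1-/- and 529 and 794 in treated Cfp1-/- cells. The groups overlapped in both lines. Its values were 0.06 (adjusted p = 0.84) in WT and -0.14 (adjusted p = 0.624) in Cfp1-/- cells, and the latter was 0.14 (adjusted p = 0.528) without the run that had 0 counts. Fanca, Fancc and Fance were not called in either line, with 0.29, 0.17 and -0.07 in WT and 0.04, -0.18 and 0.07 in Cfp1-/- cells.

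Fancd2 and Fanci form the pair that the core complex marks with ubiquitin. Fancd2 (ENSMUSG00000034023, chromosome 6, 113481676 to 113547011) had 2888 and 2561 counts in untreated WT, 2192 and 1730 in treated WT, 3373 and 3574 in untreated Cfp1-/- and 2854 and 3161 in treated Cfp1-/- cells. It fell in WT cells (-0.43, SE 0.15, adjusted p = 0.0342, and -0.34 with an adjusted p of 0.086 with first runs alone) and had -0.17 (adjusted p = 0.375) in Cfp1-/- cells. Fanci (ENSMUSG00000039187, chromosome 7, 86536815 to 86595151) had 2708 and 2043 counts in untreated WT, 2143 and 1950 in treated WT, 5647 and 5452 in untreated Cfp1-/- and 4464 and 4645 in treated Cfp1-/- cells. Its line difference was far larger than its values with doxorubicin, which were -0.17 and -0.24 (adjusted p = 0.375 and 0.203).

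Of the nucleases, only the scaffold that assembles them rose. Slx4 (ENSMUSG00000039738, chromosome 16, 3979105 to 4003770) had 1457 and 1206 counts in untreated WT, 3115 and 2213 in treated WT, 1429 and 1064 in untreated Cfp1-/- and 1883 and 1863 in treated Cfp1-/- cells. All treated libraries lay above all untreated ones, with 1.05 (SE 0.20, adjusted p = 0.0022) in WT and 0.63 (SE 0.20, adjusted p = 0.0265) in Cfp1-/- cells. Mus81 and Eme1 form one nuclease. Eme1 fell in WT cells (-0.41, SE 0.12, adjusted p = 0.0213) and had -0.24 (adjusted p = 0.138) in Cfp1-/- cells, while Mus81 had 0.32 and -0.19 (adjusted p = 0.229 and 0.466). Gen1, a resolvase that cuts Holliday junctions, had -0.07 (adjusted p = 0.689) in WT and fell in Cfp1-/- cells (-0.48, SE 0.12, adjusted p = 0.0102).

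Whether these responses differed between the lines was tested directly. No member had a response in Cfp1-/- cells that differed from that in WT cells at an adjusted p under 0.05, and 0.235% of all genes did. By unadjusted p under 0.05 there were 4 of the 34 and 10.6% of all genes, and DESeq2 called 0 members, with 3 at an unadjusted p under 0.05. The largest differences were -0.86 for Fancg (SE 0.29, adjusted p = 0.336), 0.77 for Nbn (SE 0.22, adjusted p = 0.246) and 0.76 for Fancf (SE 0.41, adjusted p = 0.564), where a negative value means a lower response in Cfp1-/- cells. Fancm followed with -0.66 (SE 0.24, adjusted p = 0.385). With the replicate block and without the affected run of treated Cfp1-/- cells, Fancm (adjusted p = 0.0311) and Nbn (adjusted p = 0.0464) were called. With the block alone their adjusted p were 0.0583 and 0.067. A gene called in one line only is thus not shown to respond differently in the other.

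**Figure D4:**
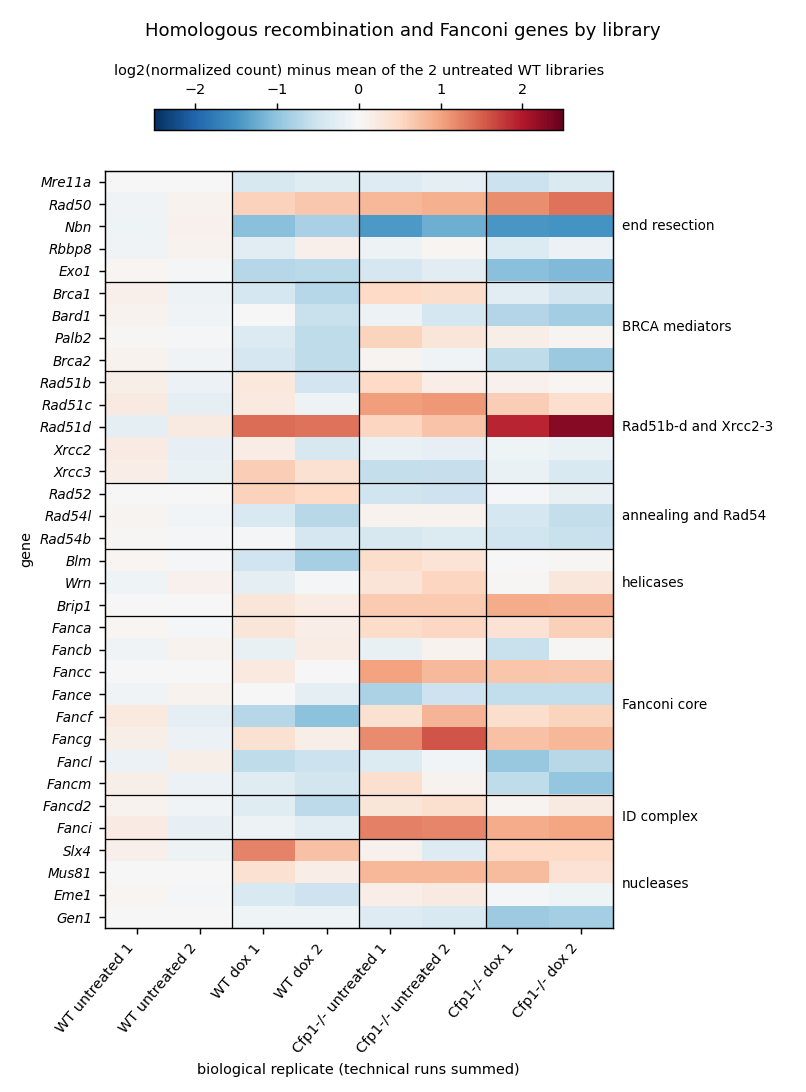
Log2 normalized count of each of the 34 genes in the 8 biological replicates minus the mean of the 2 untreated WT libraries, ordered by role, with red for higher and blue for lower. Rad51d is red in all treated libraries, Nbn blue in all libraries but those of untreated WT cells, and Fanci, Fancg and Rad50 red in all Cfp1-/- libraries.

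The lines were then compared without treatment, to see how the levels stood before any damage. In untreated Cfp1-/- cells 12 of the 34 members were higher and 3 lower than in untreated WT cells. Higher calls made up 17.9% and lower calls 16.1% of all genes, against 35.3% and 8.82% of the members. The median difference was 0.25 for the members (0.16 to 0.32 with 1 library left out) and 0.01 for all genes, 27 of the 34 did not overlap against 69.9% of all genes, and 1 member, Fancg, met the limits of the study, as did 3.33% of all genes. With library totals, which moved the median of all genes by 0.19, 15 were higher and 1, Nbn, lower. The replicate block gave 14 higher and 6 lower, adding Exo1, Gen1 and Xrcc3 to the latter (adjusted p = 0.0352, 0.0489 and 0.0391). The shares of all genes called with library totals and with the block are not given here. Leaving out 1 library gave 7 to 13 higher, with 7 without replicate 1 of untreated Cfp1-/- or replicate 2 of untreated WT cells, and 1 or 2 lower, with 1 without either replicate of untreated WT, untreated Cfp1-/- or treated Cfp1-/- cells. Rad50, Brip1, Rad51c, Fancc, Fancg and Fanci (higher) and Nbn (lower) were called in all 8 fits.

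The largest differences without treatment lay in the Fanconi genes and in Nbn. Fancg was 2.65-fold higher (1.41, SE 0.21, adjusted p = 0.0012), Fanci 2.38-fold higher (1.25, SE 0.15, adjusted p = 0.000436) and Nbn 2.45-fold lower (-1.29, SE 0.15, adjusted p = 0.000425) in Cfp1-/- cells. Each of these 3 had 4 libraries without overlap. Fancc, an adaptor of the core complex, was higher by 0.94 (SE 0.17, adjusted p = 0.00286) and Fanca by 0.51 (SE 0.14, adjusted p = 0.0185), while Fance, another adaptor, was lower (-0.62, SE 0.20, adjusted p = 0.0386). Rad51c (1.07, adjusted p = 0.00526) and Rad51d (0.65, adjusted p = 0.0318) were higher among the strand exchange complexes. Within the Mre11 complex Rad50 was higher (0.88, adjusted p = 0.00108), Nbn lower, and Mre11a not called (-0.25, adjusted p = 0.134). Brip1 (0.68, adjusted p = 0.00345) and Blm (0.42, adjusted p = 0.0423) were higher among the helicases, Brca1 (0.49, adjusted p = 0.0311) and Palb2 (0.46, adjusted p = 0.0446) among the mediators, and Mus81 (0.85, adjusted p = 0.0113) among the nucleases. Rad52 was lower (-0.48, adjusted p = 0.0475).

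Under doxorubicin 10 members were higher and 4 lower in Cfp1-/- than in WT cells. The shares of all genes were 15.1% and 10.8%, against 29.4% and 11.8% of the members, and 26 of the 34 did not overlap against 65.0% of all genes. The median was 0.10 for the members (0.0235 to 0.25 with 1 library left out) and 0.02 for all genes. The limits of the study were met by 2.61% of all genes and by 0 members, since Fancf, which was 2.62-fold higher, had too few counts. Fancf (1.39, SE 0.30, adjusted p = 0.00954), Fanci (1.18, adjusted p = 0.000993), Rad51d (0.75, adjusted p = 0.0205), Blm (0.70, adjusted p = 0.0069), Brip1 (0.69, adjusted p = 0.00472), Rad50 (0.66, adjusted p = 0.00616) and Fancd2 (0.64, adjusted p = 0.012) led the higher members, followed by Palb2 (0.61), Fancc (0.58) and Eme1 (0.40), and Xrcc3 (-0.75, adjusted p = 0.0324), Gen1 (-0.74, adjusted p = 0.00338), Rad52 (-0.62, adjusted p = 0.0222) and Nbn (-0.52, adjusted p = 0.0334) were the lower ones. With library totals 10 were higher and 2 lower, and the replicate block gave 11 higher and 8 lower. Leaving out 1 library gave 4 to 9 higher, with 4 without replicate 2 of treated Cfp1-/- or of treated WT cells, and 1 to 4 lower, with 1 without either replicate of treated Cfp1-/- cells and 2 without replicate 1 of treated WT cells. Rad50, Brip1, Fanci and Blm (higher) and Gen1 (lower) were called in all 8 fits. In both states Blm, Brip1, Fancc, Fanci, Palb2, Rad50 and Rad51d were higher and Nbn and Rad52 lower, and the sign was the same in both for 32 of the 34 members (94.1%) and 79.4% of all genes.

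The line differences were not even across the chromosomes. Over all tested genes, the median difference between untreated Cfp1-/- and WT cells was 0.51 on chromosome 11 (1279 genes) and 0.53 on chromosome 7 (1283 genes), that is 1.43-fold and 1.44-fold, and between -0.23 and 0.29 on the other chromosomes that carry a member. With doxorubicin it was 0.51 and 0.47. Brca1, Fancl, Rad50, Brip1, Rad51c, Rad51d and Eme1 lie on chromosome 11 and Palb2, Fancf, Fanci and Blm on chromosome 7. Of these 11, 8 were higher in untreated Cfp1-/- cells, against 39.7% of all genes on the 2 chromosomes, and of the 23 members elsewhere 4 were, against 13.7%. The median of the 11 was 0.63 and that of the 23 was -0.02. With doxorubicin 8 of the 11 were higher (35.5% of all genes there) and 2 of the 23 (11.1%).

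In an alternative chosen after seeing the data, the median difference of each chromosome was removed and the affected run of treated Cfp1-/- cells was left out. Then 7 members (20.6%) were higher and 4 (11.8%) lower in untreated Cfp1-/- cells, against 15.8% and 16.0% of all genes. On chromosomes 7 and 11 Rad50 (0.37, adjusted p = 0.0364) and Fanci (0.72, adjusted p = 0.00541) remained higher and Fancl was lower (-0.68, adjusted p = 0.00851). Elsewhere Fancg (1.52), Fancc (1.08), Fanca (0.74), Wrn (0.68) and Mus81 (0.56) were higher and Nbn (-1.18), Fance (-0.59) and Rad52 (-0.46) lower. Brca1, Palb2 and Blm, called higher before, then had -0.02, -0.07 and -0.11, and the calls of Rad51c (0.55, adjusted p = 0.0689), Rad51d (0.14) and Brip1 (0.17) were lost as well. With doxorubicin 5 were higher, of which Fanci alone lies on chromosome 7 or 11, and 5 lower, against 12.2% and 10.7% of all genes.

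**Figure D5:**
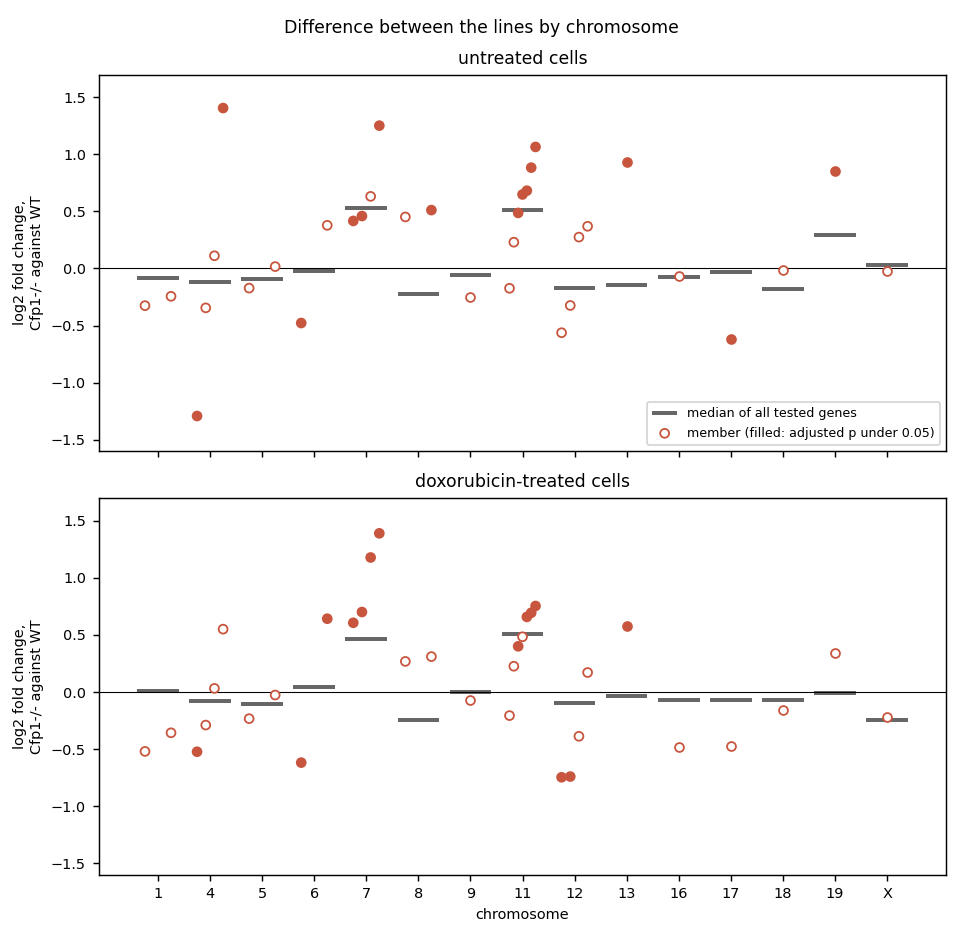
Log2 fold change between Cfp1-/- and WT cells for each member (points, filled at an adjusted p under 0.05), by chromosome, without (top) and with doxorubicin (bottom), with grey bars for the median of all tested genes of that chromosome. The grey bars stand at 0.53 and 0.51 on chromosomes 7 and 11 without treatment, and 8 of the 12 filled points above 0 lie there. The bars with doxorubicin include the affected run of treated Cfp1-/- cells. With that run the median was -0.24 on the X chromosome and -0.01 on chromosome 19, and without it 0.03 and 0.22.

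A list of 40 other genes of the same pathways was examined beside the members. In WT cells 2 of them rose (5%, against 26.5% of all genes) and 10 fell (25%, against 21.8%). In Cfp1-/- cells 4 rose (10%, against 27.8%) and 10 fell (25%, against 21.0%), and the medians were -0.22 and -0.17. Rif1, which restrains resection, fell in both lines (-1.64 and -1.18, adjusted p = 5.38e-05 and 0.000366), as did Usp1, which removes ubiquitin from Fancd2 (-1.39 and -1.24). The lowest value in Cfp1-/- cells was that of Brcc3 (-1.43), a deubiquitinase of a complex with Brca1. Rpa1 and Rpa2, which coat single-stranded DNA, fell in both lines (-0.69 and -0.56 in WT, -0.61 and -0.79 in Cfp1-/- cells). Zswim7 (0.56) and Babam1 (0.48) rose in WT cells. Between the untreated lines 4 (10%) were higher and 6 (15%) lower in Cfp1-/- cells, against 17.9% and 16.1% of all genes, and between the treated lines 4 (10%) and 7 (17.5%), against 15.1% and 10.8%.

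Marker genes moved in the same comparisons. Of 7 genes of proliferation and S phase, 6 fell in both lines, among them Mki67 (-0.74 and -0.87), Pcna (-0.45 and -0.81) and Mcm2 (-0.43 and -0.49), and their summed level went from 64590 to 79231 normalized counts in the 4 untreated libraries to 34065 to 47063 in the 4 treated ones. E2f1, a member of the same list that drives S phase genes, rose (1.71 and 1.40). Of the 9 ES cell markers 8 fell in both lines. Of the 8 feeder fibroblast markers, 7 were tested and 3 rose in both lines (Col1a1, Pdgfrb and Thy1). The remaining tested markers were not called. They had negative values in WT cells (Col3a1 -0.81, Dcn -0.57, Col1a2 -0.32 and Postn -0.18). Dcn had -1.29, Col1a2 0.95, Col3a1 1.02 and Postn 1.05 in Cfp1-/- cells. The sum of the 8 markers was 138 to 263 normalized counts in the untreated and 407 to 572 in the treated libraries. Col1a1 alone went from 90.9 and 55.2 to 365 and 201 in WT cells. Of 6 markers of primitive endoderm, Pdgfra rose in WT cells (3.02) and Pdgfra (1.58), Gata4 (1.74) and Sox17 (2.17) in Cfp1-/- cells. Gata4 and Sox17 were near the floor, with 2 to 7 raw counts in untreated and 12 to 24 in treated Cfp1-/- libraries. In Cfp1-/- cells Sox7 (-1.54), Dab2 (-1.17) and Gata6 (0.27) were not called. Of 3 tested trophectoderm markers, Krt7 rose in both lines (1.69 in WT cells) and Hand1 in WT cells (3.21), at sums of 78.1 to 164 untreated and 236 to 473 treated. The part of these markers in the changes of the recombination genes was not tested.

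Markers also differed between the lines. In untreated Cfp1-/- cells 3 of the 7 proliferation genes were lower, namely Ccne1 (-1.41), Mcm2 (-0.66) and Pcna (-0.60), and 0 were higher, and the same 3 were lower with doxorubicin (-1.11, -0.72 and -0.96). Of the ES cell markers Pou5f1 (-0.65), Zfp42 (-1.31) and Tdgf1 (-0.53) were lower and Nanog (1.46) and Utf1 (0.72) higher without treatment, and with it Pou5f1 was lower (-0.64) and Nanog higher (1.71). Of the feeder markers 3 collagen genes were lower and Pdgfrb was higher without treatment, and the sum was 245 to 263 in WT and 138 in both Cfp1-/- libraries. Pdgfra (2.52) and Elf5 (5.14) were also higher, the latter with 1 and 0 raw counts in untreated WT and 34 and 11 in untreated Cfp1-/- cells. Among markers of the same lists that were not called, Gata4 had -1.44, Gata6 1.42, Krt7 -0.28 and Hand1 1.71. Cdx2, not tested, had 14 and 29 raw counts in untreated WT and 5 and 1 in untreated Cfp1-/- cells. Their part in the line differences of the recombination genes was not tested.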

How the data were processed

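RNA of 16 samples was analysed, 2 technical runs of each of 8 biological replicates. Per the labels and the methods of the study, the authors removed rRNA, built libraries that keep the strand, and mapped reads to NCBIm37 (mm9) using STAR (2.2.1 in the submitters' processing notes) and counted reads on Ensembl exons with HTSeq (stranded, union mode). The deposited raw values are counts per gene and run. The deposited normalized values are a signal, namely counts summed over runs and scaled by DESeq size factors, and were used for levels only. Union mode drops reads on overlapping exons, and no member shared exons with another annotated gene on its strand.

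Runs were summed and fitted with edgeR 4.0.16 (R 4.3.3): filterByExpr, TMM, a coefficient for each of 4 groups, glmQLFit and glmQLFTest, 5 contrasts, Benjamini-Hochberg over 15758 genes. Calls are adjusted p under 0.05. Each standard error follows from the fold change and its F statistic. Nothing in the sources used here says that replicates came from separate cultures beyond the word biological, so p-values measure the spread between these samples. Total counts were 14880589 to 29422711 and the lowest member count was 48. Scripts were tested on simulated data.

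The 34 members and all gene lists were chosen with earlier results of these data known. Values in all 8 replicates are given for Brca1, Brca2, Fancd2, Fanci and Fancb, for the 3 largest called rises and falls in each line, and for the 3 largest differences in response and between untreated lines. Same-numbered replicates deviated together (r = 0.14 to 0.451 over the 6 pairs of groups). The replicate number was therefore used as a block in an alternative, although what it marks is not given in the sources used here. The common dispersion, the spread that the fit assumes between replicates, was 0.0304 without and 0.0163 with the block. Counts and calls are from the fit without the block unless said otherwise. Other alternatives were DESeq2 1.42.0, other scalings, no filter, pairs of groups alone, runs or replicates left out, the limits of the study and, chosen after seeing the data, removal of chromosome medians. The 40 other pathway genes leave out 1 listed symbol that the reference gives as a synonym of a gene of another name. Promoter windows are RefSeq's.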

Additional observations from a re-analysis of the deposited data

Results flagged for a closer look

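In all, 4 members moved in opposite directions in the 2 lines in both biological replicates, which was the reason to look at them again. The share of all genes that did so is not given here. The fold changes had the same sign in both lines for 79.4% of the members and 85.0% of all genes. Some of these moves were very small, such as log2 values of 0.0057 for Rad51c and -0.017 for Xrcc2 in replicate 1 of WT cells. Treated and untreated WT libraries overlapped for Fancg, Rad51c and Xrcc2. The difference in response (Cfp1-/- minus WT) was -0.86 for Fancg, -0.58 for Rad51c, -0.51 for Mus81 and 0.15 for Xrcc2 on the log2 scale. The test of the difference itself passed for none of them, with adjusted p of 0.336, 0.553, 0.577 and 0.913 in edgeR's quasi-likelihood fit.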

How the results depend on the processing

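Members called higher and lower were counted under every alternative, beside 4 and 11 in the WT response, 4 and 8 in the Cfp1-/- response, 0 in the difference in response, and 12 and 3 (untreated) and 10 and 4 (treated) between the lines. DESeq2, its size factors in edgeR, no filter and first runs alone kept each count within 1.5 times, and the fit on the 2 groups compared alone did except for 1 lower member between the untreated lines. DESeq2 did not call Rad52 in the Cfp1-/- response, Palb2 and Blm between the untreated lines or Eme1 between the treated lines. It added Mre11a in the WT response, Bard1 in the Cfp1-/- response, Exo1 between the untreated lines, and Exo1 and Bard1 between the treated lines. Library totals gave 10 and 2 members in the WT response, 4 lower in the Cfp1-/- response, and 1 lower (untreated) and 2 lower (treated) between the lines. The limits of the study left 1 higher and 0 lower in both responses, 1 and 0 between the untreated and 0 and 0 between the treated lines. With the replicate block, lower members between the lines numbered 6 (untreated) and 8 (treated). With the replicate block and without the affected run of treated Cfp1-/- cells, they numbered 7 and 9, and 2 members differed in response. Beside the calls named in the report, the replicate block added Wrn and Fancd2 (higher) between the untreated lines and, between the treated lines, Fancg (higher) and Exo1, Bard1, Fancm and Slx4 (lower). Removing chromosome medians without that run left 7 (untreated) and 5 (treated) higher. The cause of these changes was not tested. Apart from the limits of the study and the removal of chromosome medians, the shares of all genes called under these alternatives are not given.

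Leaving out 1 library at a time gave 4 to 11 lower members in the WT response, 1 to 3 higher and 5 to 10 lower in the Cfp1-/- response, 7 to 13 higher and 1 to 2 lower between the untreated and 4 to 9 higher and 1 to 4 lower between the treated lines. The group left with 1 library was assumed to vary like the others.

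The values of some members turned their sign, and 4 of these had been called. Removing chromosome medians without the affected run gave -0.0239 for Brca1 (called at 0.49), -0.069 for Palb2 (called at 0.46) and -0.11 for Blm (called at 0.42) between the untreated lines, and -0.27 for Brca1 (0.23), -0.12 for Eme1 (called at 0.40) and 0.0257 for Fancb between the treated lines. Brca2 between the untreated lines (0.02) was -0.0115 with DESeq2's size factors and -0.0125 with DESeq2, and ran from -0.0702 to 0.11 with 1 library left out. With library totals Fanci in the WT response was 0.14 and Fancd2 in the Cfp1-/- response 0.0504, and Fanci ran from -0.37 to 0.0481 with 1 library left out. Fancb in the Cfp1-/- response was 0.0784 with library totals, 0.14 without the affected run, with or without the replicate block, 0.11 with first runs alone and -0.46 to 0.10 with 1 library left out. Between the treated lines Fancb was 0.0607 without the affected run, 0.0699 with the replicate block as well, 0.10 with first runs alone and -0.53 to 0.0318 with 1 library left out. Between the untreated lines it was 0.18 with library totals, 0.00755 in the fit of these groups alone, 0.0568 with first runs alone and -0.15 to 0.13 with 1 library left out, and in the WT response it ran from -0.14 to 0.23.

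With 2 replicates per group, changes of the size seen for most members lie near the threshold, as the ranges with 1 library left out show. After a trend of the fold change on gene span was removed, the members' median was -0.17 in the WT and -0.32 in the Cfp1-/- response, -0.12 in the difference in response, and 0.23 (untreated) and -0.00802 (treated) between the lines.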
